A study of Mus musculus with 21 samples.

Results

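The 10 cytosolic and mitochondrial chaperone genes described here were followed through an in vitro expansion of mouse CD8 T cells. They were Hspa1a, Hspa1b, Dnajb1, Hsph1 and Hspb1, the inducible members, and Hspa8, Hsp90aa1, Hsp90ab1, Hspd1 and Hspe1, the constitutive members. All 10 were among the 17516 gene symbols of every library. The members were chosen by name as a family, and Hspa1a and Hspa1b were selected on measured values, because they stood highest in the contrast of 50 against 5 IU/mL IL-2. Their levels in that contrast, their spread over cells and the split into inducible and constitutive members are therefore descriptions and support nothing.

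Chaperones bind unfolded or partly folded proteins and return them to their native form. When misfolded protein accumulates, the transcription factor HSF1 is released from chaperones, forms trimers and binds heat shock elements, repeats of the unit nGAAn in alternating orientation, upstream of the inducible genes. The constitutive cognates run in unstressed cells, and T cells raise their protein synthesis, and with it the demand for folding, when they leave quiescence.

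RNA was measured in single OT1 cells, CD8 T cells that carry a transgenic receptor for an ovalbumin peptide. One library of untreated naive cells was taken on day 0. All other cells had been stimulated with beads bearing antibodies to CD3 and CD28, and were kept without exogenous cytokine (days 3 and 5) or with wild type IL-2, IL-2v (mutant IL-2bg in the treatment label) or IL-15, each at 5 or 50 IU/mL (days 3, 5 and 10). The treatment labels of the 50 IU/mL IL-2 libraries name interleukin-3 and those of the 50 IU/mL IL-15 libraries name interleukin-16, and the titles were followed here. Each of the 21 conditions was a single library, so no difference between conditions had a replicate check and no p-value was computed. The extraction protocol describes a sort of tumour-infiltrating cells, the growth protocol describes culture, and how many animals or cultures stood behind a library is not given in the sources used here.

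The libraries held 3250 to 7105 kept cells and 10589950 to 32648496 unique molecular identifiers (UMIs, tags that mark single captured RNA molecules). The shallowest, with a median of 3016 UMIs per cell, was day 5 at 50 IU/mL IL-2. Levels are given as CPM, the counts of a gene scaled to a common library total, with exact Poisson 95% intervals, which cover counting error only and not the spread between cultures. Cd3d, a subunit of the T cell receptor complex, had a UMI in 93.0% to 99.5% of cells, and the myeloid genes Lyz2, Csf1r and Adgre1 were at most 0.541, 0.433 and 0.325 CPM in any library. Others of the 6 myeloid markers were higher: Fcer1g reached 113 CPM and Cd68 14.9 CPM on day 10 at 50 IU/mL IL-2, and Itgam reached 4.54 CPM. The haemoglobin gene Hbb-bt stood at 2.91 and 2.55 CPM on days 3 and 5 at 50 IU/mL IL-2 and at no more than 0.273 CPM elsewhere. Any pair of libraries shared 1 to 19 cell barcodes, at most 0.340% of the smaller library. In every library fewer genes had UMIs in exactly 1 cell (3 to 272) or 2 cells (37 to 393) than in 3 cells (433 to 495), so a value of 0 for a gene may stand for UMIs in 1 or 2 cells that were not kept in the tables.

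The inducible Hsp70 genes are a near-identical pair, and their upstream sequence is shown because it holds a match to the heat shock element and differs little between them. Binding of HSF1 was not measured. Hspa1a (chr17:34969190-34972156, minus strand) and Hspa1b (chr17:34956436-34959238, minus strand) lie 9951 bases apart in mm10 (GRCm38). Their coding sequences differed at 7 of 1926 aligned bases (99.6% identical), while their 3' untranslated regions were 78.3% identical over the aligned bases. The 250 bases upstream of their starts differed at 3 positions. The stretch of Hspa1a, from RefSeq (chr17:34972157-34972406, minus strand), is printed 5′ to 3′ with the match to the heat shock element in capitals.
Hspa1a: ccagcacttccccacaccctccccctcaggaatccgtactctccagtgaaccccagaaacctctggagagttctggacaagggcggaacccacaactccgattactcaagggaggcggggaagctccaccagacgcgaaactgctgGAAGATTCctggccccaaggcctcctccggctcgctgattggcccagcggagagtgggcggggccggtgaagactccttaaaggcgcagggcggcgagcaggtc
The match began 104 bases upstream of the start in both genes. Shorter windows show the other inducible members that held one, Hspb1 (chr5:135887787-135887844, plus strand) and Hsph1 (chr5:149636356-149636375, minus strand).
Hspb1: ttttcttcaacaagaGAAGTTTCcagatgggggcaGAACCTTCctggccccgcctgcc
Hsph1: gaatctTTCTCGAAggctcg
The last window lies upstream of Hspe1 and within the annotated span of Hspd1, a head-to-head pair whose annotated exons overlap by 112 bases on opposite strands (chr1:55088053-55088082, read on the plus strand).
Hspe1: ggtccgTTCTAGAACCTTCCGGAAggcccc

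The search took the spellings GAANNTTC and TTCNNGAA, each of which reads the same on both strands, in the 250 bases upstream of 32851 RefSeq start sites of 27025 genes. Either spelling was found at 12.8% of all start sites. Of the 10 members, 7 had an entry, with 10 start sites, and 6 of these genes held a match at 7 of the start sites. Hspe1 and the second start site of Hspd1 shared the one stretch with a 3-unit element (GAANNTTCNNGAA or TTCNNGAANNTTC, matched in 2 overlapping places), a pattern found at 0.466% of start sites. Dnajb1 had no match, which says only that these letters were not in its windows. Hspa8, Hsp90aa1 and Hsp90ab1 had no entry and were not searched.

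The inducible Hsp70 genes encode the stress form of the cytosolic chaperone that binds exposed hydrophobic stretches. Hspa1a stood at 65.8 CPM (62.0 to 69.9, 1087 UMIs) on day 3 and 128 CPM (122 to 135, 1360 UMIs) on day 5 at 50 IU/mL of IL-2. In the other 19 libraries together it had 88 UMIs, the median was 0.135 CPM, 8 libraries were listed at 0, and the highest was 1.28 CPM on day 10 with 50 IU/mL IL-2v. The values of the 2 libraries were 51.3 and 100.1 times that highest value. Hspa1b reached 52.6 CPM (49.2 to 56.3) and then 104.7 CPM (98.6 to 111) in the same 2 libraries. Elsewhere it reached at most 1.46 CPM, in naive cells. Because the 2 copies are near-identical, the split of UMIs between them is uncertain, and their sum is the safer quantity. Hspa1a also shares 564 exonic bases with Gm20481 on the opposite strand, and whether this affects its count was not tested.

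Hspb1, a small heat shock protein that holds unfolding proteins until Hsp70 can act, had the same pattern at a lower count. It was at 6.30 CPM (5.15 to 7.63, 104 UMIs) on day 3 and 12.5 CPM (10.4 to 14.8, 132 UMIs) on day 5 at this high dose of IL-2. No other library exceeded 0.325 CPM, and 11 were listed at 0. By day 10 at the same dose these 3 genes were far below those levels, with Hspa1a at 0.183 CPM, Hspa1b at 0.110 CPM and Hspb1 at 0.293 CPM.

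The other inducible members were present everywhere. Dnajb1, the J-domain partner that passes substrates to Hsp70, reached 80.8 CPM (76.5 to 85.2) on day 3 and 70.1 CPM (65.1 to 75.3) on day 5 at 50 IU/mL of IL-2. In the other libraries it lay between 22.5 and 41.9 CPM with a median of 34.1, so the 2 libraries were at 1.93 and 1.67 times the highest of the rest. How many of all genes were highest in these 2 libraries was not counted. The protease gene Lonp1, not a member, was at 180 and 116 CPM in them and at most 111 CPM elsewhere. Hsph1, the Hsp110 that exchanges nucleotide on Hsp70, was highest on day 3 with 50 IU/mL IL-2 at 59.4 CPM (55.8 to 63.3). On day 5 it was at 38.5 CPM (34.9 to 42.5), level with 5 IU/mL IL-15 on day 10 at 38.7 CPM, the highest of the other libraries, which went down to 12.6 CPM. Summed, the inducible members were at 265 and 354 CPM in the 2 libraries, against a median of 58.5 CPM over all 21.

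**Figure D1:**
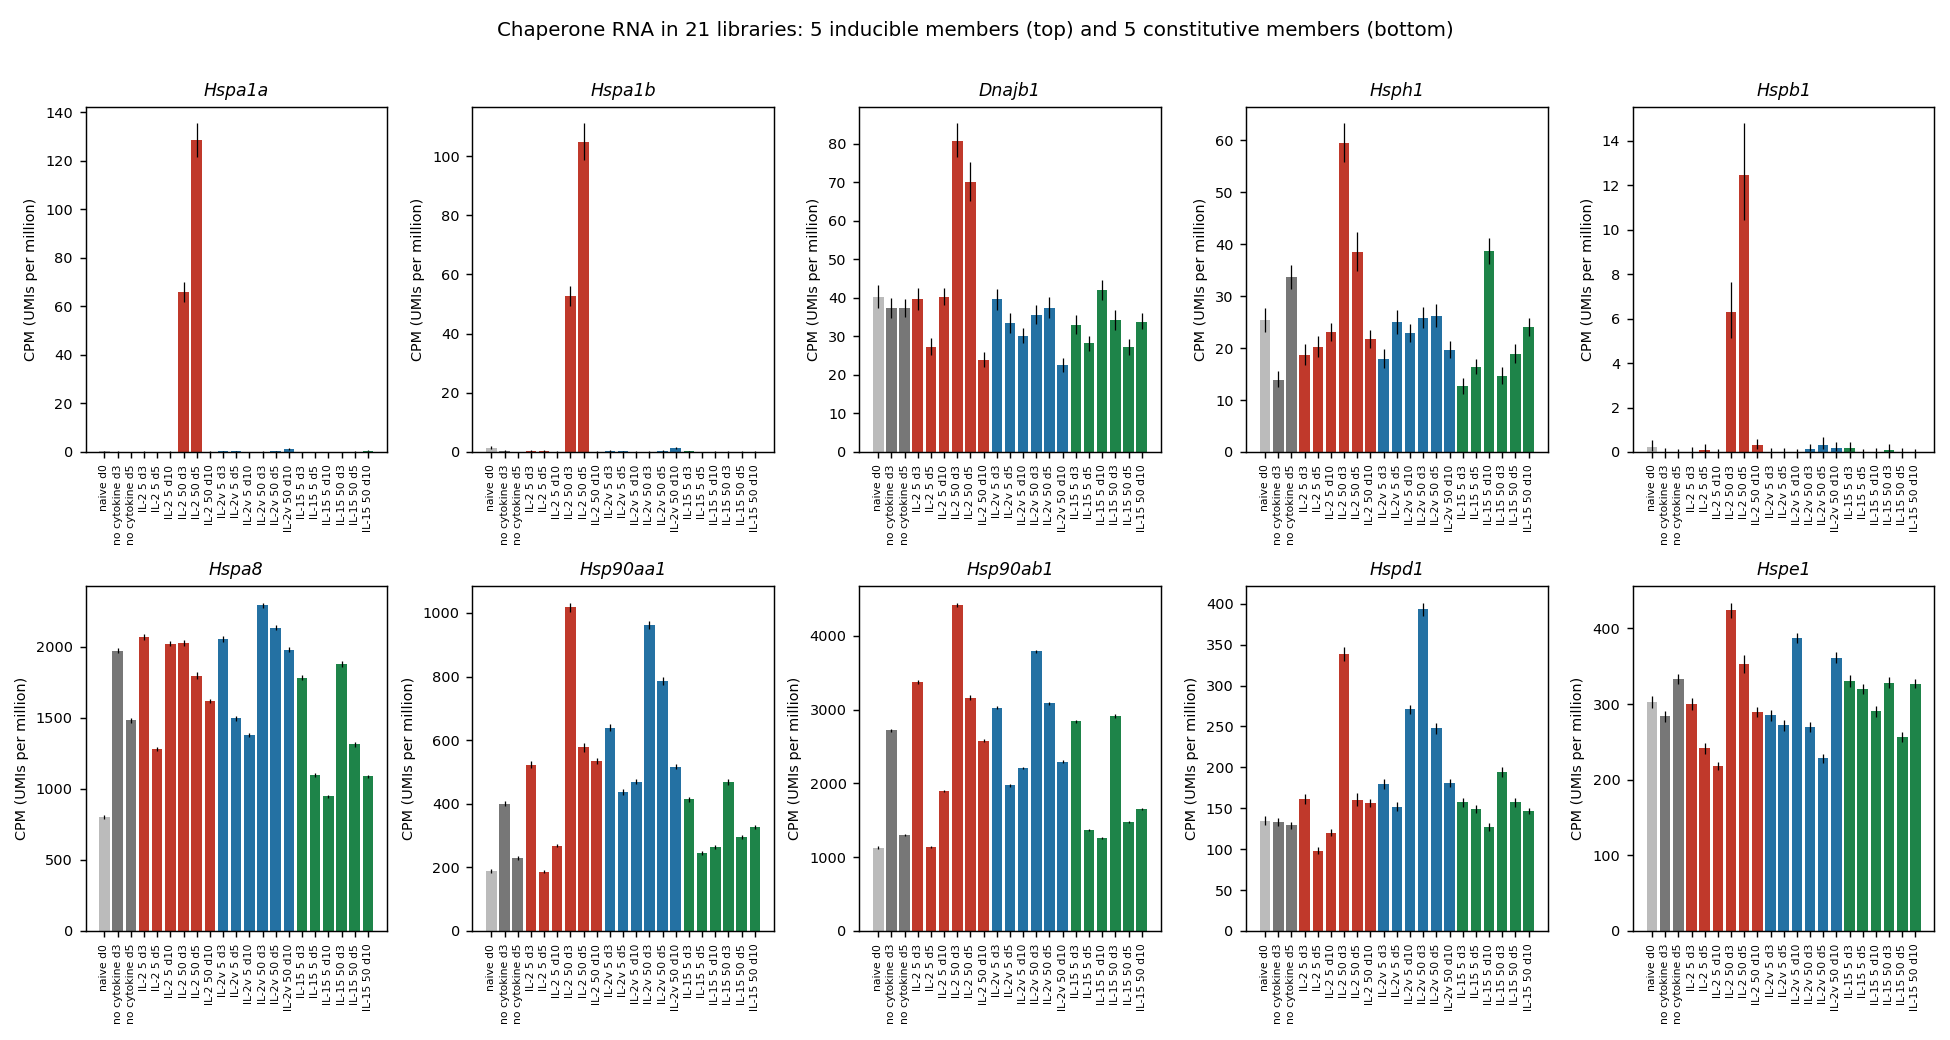
Each panel plots 1 chaperone gene in the 21 libraries, as CPM on a linear axis from 0 with exact Poisson 95% intervals as lines, coloured grey for naive cells (light) and no cytokine (dark), red for IL-2, blue for IL-2v and green for IL-15, with the dose in IU/mL and the day under each bar. Hspa1a, Hspa1b and Hspb1 stand out at 50 IU/mL IL-2 on days 3 and 5, where Hspa1a reaches 65.8 and 128 CPM, while the constitutive members vary over all libraries.

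The constitutive members were present in every library, and their highest level was 1.94 (Hspe1) to 5.44 (Hsp90aa1) times their lowest, beside 3.59 for Dnajb1 and 4.70 for Hsph1. Hspa8, the cognate Hsp70 that also strips clathrin from vesicles, ran from 804 CPM in naive cells to 2291 CPM with 50 IU/mL IL-2v on day 3 (median 1782). Hsp90ab1, the constitutive Hsp90 that matures kinases and receptors, ran from 1130 CPM in naive cells to 4419 CPM on day 3 with 50 IU/mL IL-2 (median 2292). Hsp90aa1, its paralogue, which heat can raise further, ran from 187 CPM on day 5 with 5 IU/mL IL-2, next to 187 CPM in naive cells, to 1017 CPM on day 3 with 50 IU/mL IL-2 (median 436). Libraries ranked next to each other had non-overlapping counting intervals in 19 of 20 steps for Hsp90ab1, but in only 2 of 20 steps for Dnajb1 and Hsph1.

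Hspd1 (Hsp60) and Hspe1 (Hsp10) form the folding chamber of the mitochondrial matrix, and here their RNA did not run in parallel. Hspd1 ran from 98.0 CPM with 5 IU/mL IL-2 on day 5 to 393 CPM with 50 IU/mL IL-2v on day 3. Hspe1 ran only from 219 CPM with 5 IU/mL IL-2 on day 10 to 424 CPM on day 3 with 50 IU/mL IL-2. Across the 21 libraries Pearson's r of their log2(CPM + 1) values was 0.35, as a description of libraries that share days and doses. All 10 members together took 0.263% of UMIs in naive cells and 0.849% on day 3 with 50 IU/mL IL-2.

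For the comparisons, log2 differences of CPM + 1 were taken between libraries matched on the other variables, and this scale understates differences at low levels. Tested genes averaged at least 20 CPM in either arm, and a gene was called where the median difference was at least 1 in size (2-fold) with the same sign in every pair. Hspb1 never reached that level. Comparisons against naive cells, against no cytokine or between doses reuse the same libraries, and their values are given side by side only.

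Bead activation was asked first, with naive cells against day 3 without cytokine. Hspa8 was higher by 1.29 on the log2 scale (804 to 1972 CPM), Hsp90ab1 by 1.27 (1130 to 2720 CPM) and Hsp90aa1 by 1.09 (187 to 401 CPM). Of the 5 constitutive members 3 were thus called higher and 0 lower, where 11.1% of 6171 tested genes were called higher and 8.31% lower. Hspd1 and Hspe1 differed by -0.02 and -0.09, and the sign of Hspd1 turned to 0.03 with TMM scaling. No inducible member was called among the 2 tested: Dnajb1 differed by -0.11, and Hsph1 by -0.82 (25.3 to 13.9 CPM). Cells with a UMI of Mki67 or of Top2a, proliferation genes, were taken as cycling. Among the remaining cells the Hsp90aa1 difference was 0.35 and no longer called, as it also was not with the mean of single-cell CPM (0.9995), and the Hsph1 difference was -1.32 and was called. Cycling cells made up 3.01% of naive cells and 60.0% of those of day 3. Hsf1, the factor itself, was lower by 1.07 (29.2 to 13.3 CPM), and 0 of 10 tested other HSF1 targets were called. Called higher were 1 of 16 cochaperones (Fkbp5, 1.14), 1 of 14 subunits of TRiC and prefoldin (Tcp1, 1.06), 1 of 9 genes of mitochondrial protein quality (Lonp1, 1.17) and 2 of 14 genes of the endoplasmic reticulum and its unfolded protein response (Xbp1, 1.19, and Sdf2l1, 1.05).

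From day 3 to day 5 without cytokine, Hsph1 was higher by 1.21 (13.9 to 33.6 CPM) and Hsp90ab1 was lower (-1.07, 2720 to 1297 CPM). These were 1 call in each direction among 7 tested members, with 3.61% of 5785 genes called higher and 9.47% called lower. The Hsp90ab1 difference was -0.96 with TMM scaling, which moved the median of all genes by 0.12, and the Hsph1 difference was 0.87 with a pseudocount of 10 CPM. The share of cycling cells was 13.8% on day 5.

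The dose of IL-2 was compared next. The differences of 50 against 5 IU/mL on days 3, 5 and 10 were 6.06, 7.02 and 0.02 for Hspa1a and 5.46, 6.40 and 0.01 for Hspa1b. Both were called higher and no member lower, beside 4.29% of 5879 genes called higher and 2.70% called lower; the rule that chose these genes used this contrast, and nothing is read from the count. Their day 10 differences rested on 5 against 5 UMIs and 3 against 3 UMIs and were not detectable at this depth. Without cells above 5% mitochondrial UMIs only 1 of these calls remained, Hspa1b, while the median of Hspa1a was 6.18 and its sign was not the same on all 3 days. With the mean of single-cell CPM in place of summed counts Hspa1b was not called (median 5.29).

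Dnajb1 was higher at 50 IU/mL on days 3 (80.8 against 39.7 CPM) and 5 (70.1 against 27.3 CPM) and lower on day 10 (23.9 against 40.2 CPM), differences of 1.01, 1.33 and -0.73. Hsph1 differed by 1.62, 0.89 and -0.08. Hsp90aa1 was higher on all 3 days, at 1017 against 522 CPM, 577 against 187 CPM and 535 against 269 CPM (0.96, 1.62 and 0.99), and its median of 0.99 was just under the size of a call. It was called under 8 alternatives (1.01 to 1.31), among them TMM scaling (1.30), cells not cycling (1.25) and leaving out day 3 (1.31) or day 10 (1.29). Under the others it was not called, among them leaving out day 5 or the cells with a Hspa1a or Hspa1b UMI (0.82, 1.26 and 0.99 by day). The other constitutive members higher on all 3 days were Hspd1 (median 0.71), Hspe1 (0.50) and Hsp90ab1 (0.44), while Hspa8 was mixed (-0.03). Over all tested genes the median difference was 0.03, and 21.8% were higher on all 3 days. With day 10 left out 5 members were called, adding Dnajb1 (1.17), Hsph1 (1.26) and Hsp90aa1 to Hspa1a and Hspa1b. Hspa1a and Hspa1b were selected on these libraries of days 3 and 5, so nothing is read from their part in this count. Of 5920 genes 5.86% were called higher and 2.08% lower, and the median of all genes was 0.16. Genes on the marker lists of other cells differed with this dose as well, without any cell being assigned to another type. On days 3, 5 and 10 the 5 erythroid markers, 3 of them in the tables, summed to 3.15, 2.55 and 0.147 CPM at 50 IU/mL and to 0.273, 0 and 0.437 CPM at 5 IU/mL. The 6 myeloid markers summed to 2.97, 16.1 and 129 CPM at 50 IU/mL and to 5.67, 6.83 and 23.5 CPM at 5 IU/mL, with Lyz2 at 0 on days 3 and 5 at 50 IU/mL. Of the 129 CPM, 113 were Fcer1g. With IL-2v the same markers summed to 5.46, 11.9 and 50.3 CPM at 50 IU/mL and to 4.73, 4.45 and 3.37 CPM at 5 IU/mL. All 6 T cell markers were lower at 50 IU/mL on all 3 days (median of the list -0.57), of which Cd8b1 was called (-1.29). Of the 2 CD4 T cell markers Zbtb7b was called higher (1.14), as it also was by dose with IL-2v (1.09). Cd4 stood at 2.42 and 0.472 CPM on days 3 and 5 at 50 IU/mL and was highest in naive cells, at 4.39 CPM. The part of these marker genes in the chaperone differences was not tested.

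The same dose step with the other cytokines called 0 of 7 tested members in either direction. With IL-2v, Hspa8 (median 0.51), Hsp90aa1 (0.59) and Hsp90ab1 (0.32) were higher at 50 IU/mL on all 3 days, and Hspe1 was lower on all 3 (-0.10), with 2.38% of 5913 genes called higher and 0.626% lower. Of all genes 21.3% were higher and 15.8% lower on all 3 days. Hspd1 was higher on days 3 and 5 (1.13 and 0.70) and lower on day 10 (-0.58). With IL-15, Hspa8 (0.20), Hsp90aa1 (0.26), Hsp90ab1 (0.11) and Hspd1 (0.21) were higher on all 3 days by small amounts, with 0.869% of 5523 genes called higher and 0.181% lower. Of all genes 20.5% were higher on all 3 days. Under TMM scaling Hsp90ab1 and Hspd1 kept that sign on 2 of the 3 days. Hspa1a and Hspa1b stayed at or below 1.28 CPM in all of these libraries.

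**Figure D2:**
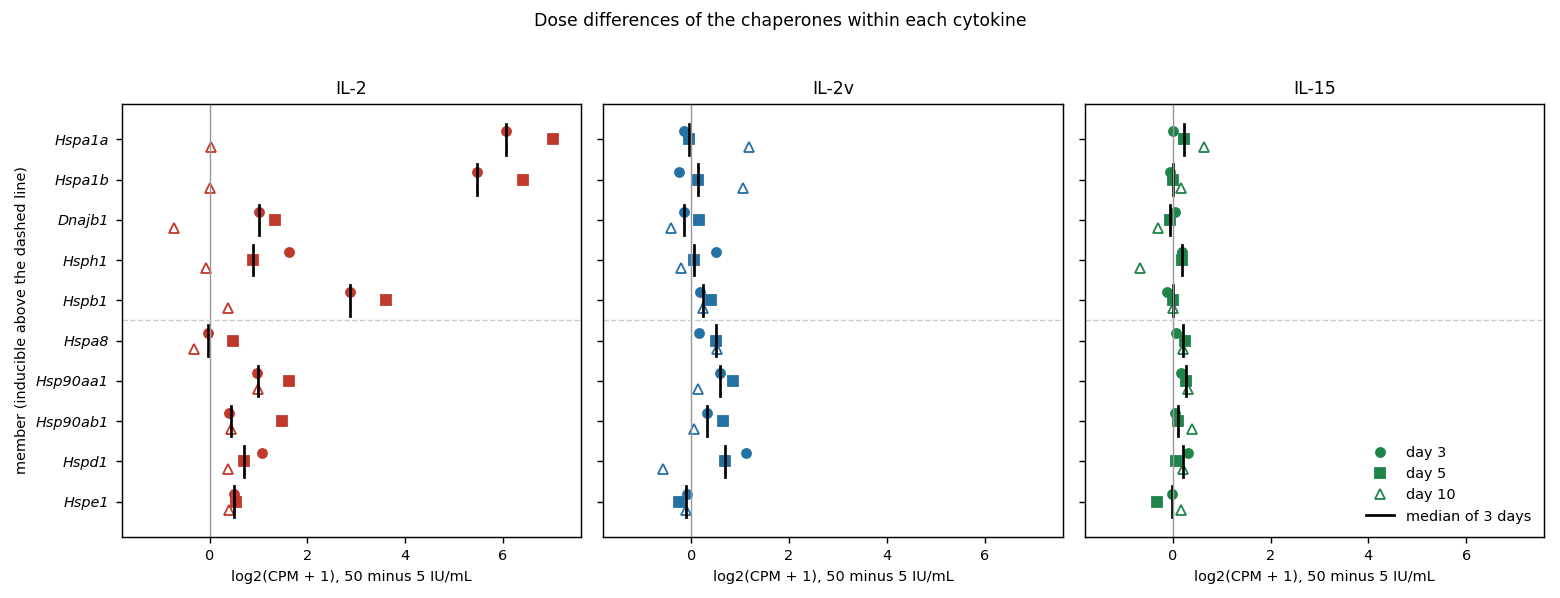
Each symbol is the difference of log2(CPM + 1) between 50 and 5 IU/mL for 1 chaperone on 1 day (circles day 3, squares day 5, open triangles day 10), and each black line is the median of the 3 days, in 1 panel per cytokine. With IL-2 the circles and squares of Hspa1a lie at 6.06 and 7.02 while its triangle lies at 0.02, and with IL-2v and IL-15 no member has a median beyond 0.70.

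Cytokines were compared in 6 pairs of equal dose and day. IL-2v against IL-2 called 0 of 9 tested members (1.04% of 5839 genes higher, 0.274% lower). Hspa1a and Hspa1b were among the 9 only through the 50 IU/mL IL-2 libraries of days 3 and 5, on which they were selected. Their differences went down to -6.77 and -6.37, and nothing is read from them. Hspd1 was higher in 6 of 6 pairs (median 0.42, range 0.15 to 1.17), as were 17.0% of all genes. IL-15 against IL-2 called 0 of 9 (0.490% of 5718 genes higher, 1.70% lower). Hspa1a and Hspa1b were again tested only through those IL-2 libraries, with differences down to -6.79 and -6.72, and nothing is read from them. Hspa8 was lower in 6 of 6 pairs (median -0.34), as were 9.58% of all genes, and Hsp90ab1 (-0.60) and Hsp90aa1 (-0.52) were lower in 5 of 6. IL-2v against IL-15 called 0 of 7 (2.48% of 5810 genes higher, 0.585% lower). In it Hspa8 (0.49), Hsp90aa1 (0.83), Hsp90ab1 (0.50) and Hspd1 (0.48) were each higher with IL-2v in 6 of 6 pairs, beside a median of 0.10 over all genes, of which 19.1% were higher in 6 of 6. Under both other scalings Hspd1 was higher in 5 of the 6 and the other genes in all 6.

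Set against the no-cytokine library of their day, 14 of 84 tested values were called higher and 0 lower, where 6.31% of 69309 gene and pair values were called higher and 2.04% lower. The 12 pairs share 2 control libraries. Of these calls 4 were Hspa1a and Hspa1b in the libraries on which they were selected, and nothing is read from them. The other 8 members gave 10 calls among 80 tested values. The calls were 6 on day 3 and 4 on day 5 with 50 IU/mL IL-2, where 6.45% and 16.5% of all tested genes were called higher, and 2 on each of these days with 50 IU/mL IL-2v, where 7.83% and 21.1% were. With IL-2v on day 3 they were Hspd1 (1.56) and Hsp90aa1 (1.26), and on day 5 Hsp90aa1 (1.77) and Hsp90ab1 (1.25). With IL-2 on day 3 Hspd1 was at 1.34, Hsp90aa1 at 1.34, Hsph1 at 2.02 and Dnajb1 at 1.09 beside Hspa1a and Hspa1b. On day 5 Hsp90aa1 was at 1.33 and Hsp90ab1 at 1.28. Without the cells that held a Hspa1a or Hspa1b UMI, an alternative chosen after seeing the data, 8 of the values were called. The calls of Hspa1a and Hspa1b were lost by construction, and the others lost were Dnajb1 on day 3 (0.54 in place of 1.09) and Hsp90aa1 on day 5 (0.97 in place of 1.33), both with IL-2. In the 8 pairs at 5 IU/mL or with IL-15 no member was called, and 2.60% of the gene and pair values were called higher and 0.757% lower (0.142% to 9.75% higher by pair), so little is read from the absence.

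Days were compared within cytokine and dose. Day 5 against day 3, in 6 pairs of equal cytokine and dose, called 0 of 8 tested members (0.829% of 5912 genes higher, 2.22% lower). Hspa1a was among the 8 only through the day 5 library of 50 IU/mL IL-2 (128 CPM), on which it was selected. Nothing is read from its part in this count. All 5 constitutive members were lower on day 5 in 6 of 6 pairs, with medians of -0.80 for Hsp90ab1, -0.71 for Hsp90aa1, -0.49 for Hspa8, -0.48 for Hspd1 and -0.25 for Hspe1, beside -0.10 over all genes, of which 1597 of 5912 were lower in 6 of 6. Under both other scalings Hspd1 and Hspe1 were lower in 5 of the 6. Day 10 against day 3 called 0 of 7 (0.870% of 5977 genes higher, 7.98% lower). Hsp90ab1 (-0.80), Hsp90aa1 (-0.77) and Hspa8 (-0.45) were lower in 6 of 6 pairs, as were 28.1% of all genes. TMM scaling moved the median of all genes by 0.26 in this comparison, and under it Hspa8 was lower in 3 of 6 and the median of Hspe1 turned from -0.10 to 0.14. Hsph1 had no common direction on either day (median 0.23 and 0.31).

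The inducible Hsp70 was held by few cells. On day 3 with 50 IU/mL IL-2, 288 of 3471 cells (8.30%) had a UMI of Hspa1a or Hspa1b, 119 (3.43%) had at least 5 and 17 had at least 20, and the fullest cell had 65. On day 5 the counts were 445 of 3250 cells (13.7%), 168 (5.17%) and 18, with 69 UMIs in the fullest cell. The cells with at least 5 UMIs held 84.5% of the Hsp70 UMIs on day 3 and 79.4% on day 5. That bound is a range and not a cell type: 21 and 30 cells had 4 UMIs, and 14 and 25 had 5.

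With every cell thinned to 2000 UMIs, which left 3347 and 2857 cells, Hspa1a had a UMI in 4.69% (exact binomial 95% interval 4.0 to 5.46) and 8.93% (7.90 to 10.0) of cells. In the other 19 libraries the thinned share was at most 0.384%. No cell type that should lack the gene was set apart here, and free RNA as a source of single UMIs was not tested. UMIs assigned to the 2 genes were found in the same cells, but the split of UMIs between the near-identical copies is uncertain. RNA of 1 copy assigned to both cannot be told apart here from RNA of both. Hspa1b had a UMI in 69.0% of cells with Hspa1a and in 1.73% of the others on day 3, and in 69.4% and 3.18% on day 5. The counts of the pair had a Pearson's r of 0.89 and 0.76 over the cells of the 2 libraries, cells that share a library and differ in depth.

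A variance to mean ratio over the thinned cells (Fano factor, about 1 for random sampling) of at least 2 marked genes more unevenly spread over cells than most. It does not by itself say that few cells hold a gene. On day 3, 2 of 9 tested members reached it, Hspa1a (4.84) and Hspa1b (3.66), beside 0.975% of 5025 genes. On day 5, 3 of 9 did, Hspa1a (4.94), Hspa1b (4.30) and Hsp90aa1 (2.54), beside 1.29% of 4658 genes. Hspa1a and Hspa1b were selected on these 2 libraries, so nothing is read from their part in these counts. Among the other tested members only Hsp90aa1 on day 5 reached a factor of 2. In the other 19 libraries 0 of 114 member values above the limit on mean counts reached it, beside 0.798% of 87211 gene and library values. Hspa1a and Hspa1b were under that limit there and were not tested, with Fano factors of up to 2.50 and 3.00 from few UMIs, so the 2 sets of libraries are not compared for them. Hsp90aa1 had a UMI in 56.4% of thinned cells on day 5 at 50 IU/mL IL-2, with up to 61 UMIs in a cell. Hspa8 and Hsp90ab1 stood at 1.17 to 1.91 in all 21 libraries and had a UMI in at least 76.9% of thinned cells. Hspb1 was below the limit on mean counts in all libraries and was not tested. Its Fano factor reached 2.40 from few UMIs, and was at most 1 in the other 19 libraries.

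**Figure D3:**
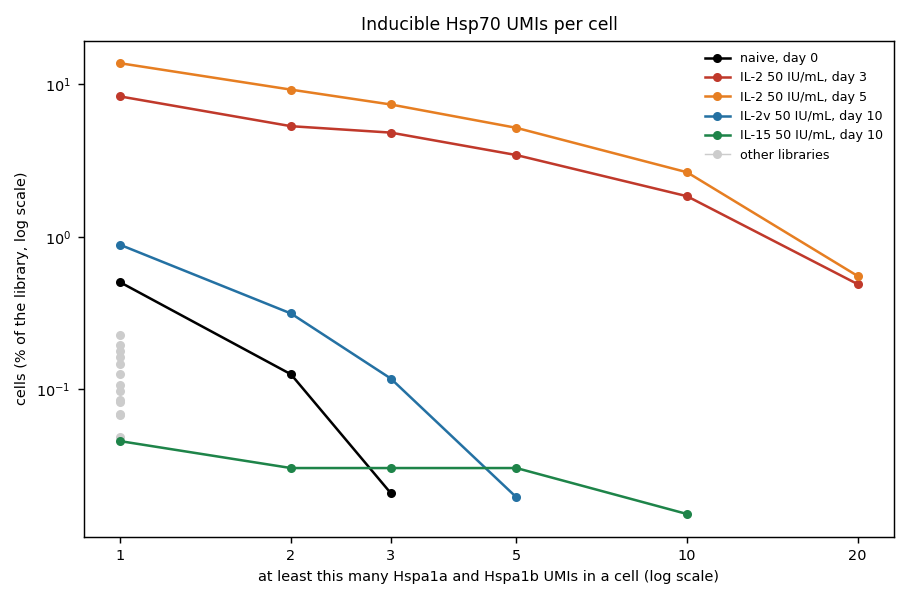
The lines give the share of cells, in percent on a log axis, with at least the number of Hspa1a and Hspa1b UMIs on the horizontal axis (log scale), and points at 0 cells are not drawn. The 2 libraries of 50 IU/mL IL-2 on days 3 and 5 hold 8.30% and 13.7% of cells with a UMI and 3.43% and 5.17% with at least 5, and 3 other libraries are drawn in colour: naive cells (black), IL-2v at 50 IU/mL on day 10 (blue) and IL-15 at 50 IU/mL on day 10 (green). The remaining libraries, in grey, have no cell with more than 1.

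Outside those 2 libraries a cell with more than 1 Hsp70 UMI was found in 3 libraries. Naive cells had 6 of 4777 such cells and none above 3 UMIs. IL-2v at 50 IU/mL on day 10 had 45 of 5090 cells with a UMI (0.884%), 16 with at least 2 and 1 with 5. IL-15 at 50 IU/mL on day 10 had 3 of 6548 cells with a UMI, but 2 of them held 21 of its 22 UMIs, 14 in a single cell.

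The cells that held Hsp70 also held more of the other chaperones. On day 3 with 50 IU/mL IL-2, Dnajb1 was at 54.7 CPM in the 3183 cells with 0 Hsp70 UMIs, 198 CPM in the 169 cells with 1 to 4, and 500.1 CPM (449 to 555) in the 119 cells with at least 5, a ratio of 9.15 between the last and the first. Hsph1 went from 41.5 to 156 to 328 CPM (7.90 times), and Hspb1 from 0.935 to 31.9 to 90.5 CPM (14 UMIs in the first class and 63 in the last). Among the constitutive members the ratio was 2.64 for Hsp90aa1 (925 to 2440 CPM), 1.89 for Hspe1, 1.78 for Hspd1, 1.48 for Hspa8 and 1.24 for Hsp90ab1. All 8 members were thus higher in each class than in the one before. Among genes of at least 20 CPM in the library, which left out Hspb1, this held for 7 of 7 of these members and for 13.7% of 5743 genes.

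On day 5 it again held for 7 of 7, beside 12.6% of 5412 genes. Dnajb1 was at 53.6, 126 and 251 CPM (4.68 times), Hsph1 at 29.4, 55.7 and 161 CPM (5.49 times), and Hspb1 at 1.64, 41.0 and 145 CPM. Hsp90aa1 was at 450, 948 and 2077 CPM (4.62 times), Hspe1 at 315, 479 and 769 CPM (2.44 times), Hspd1 at 2.22 times, Hspa8 at 1.81 times and Hsp90ab1 at 1.46 times. Dnaja1, another J-domain partner of Hsp70 and an HSF1 target, was 3.06 and 3.05 times higher in the last class than in the first on days 3 and 5, and Dnajb4 3.07 and 3.39 times. Chordc1 was at 0.83 and 0.81 times, and Hsf1 at 20.1 and 28.7 CPM on day 3 with overlapping intervals. These examples were chosen after their values were seen.

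The 3 classes also differed in other respects. Their median depth was 4397, 4646 and 5492 UMIs per cell on day 3 and 3024, 2911 and 3042 on day 5. The median mitochondrial share was 3.29%, 2.74% and 2.09% on day 3 and 2.78%, 2.06% and 1.76% on day 5. Cycling cells made up 73.0%, 81.1% and 85.7% on day 3 and 49.5%, 52.3% and 62.5% on day 5. Hbb-bt was at 2.47 CPM in the first class and 2.87 CPM in the last on day 3 (37 and 2 UMIs). The part of each of these in the class differences was not tested.

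**Figure D4:**
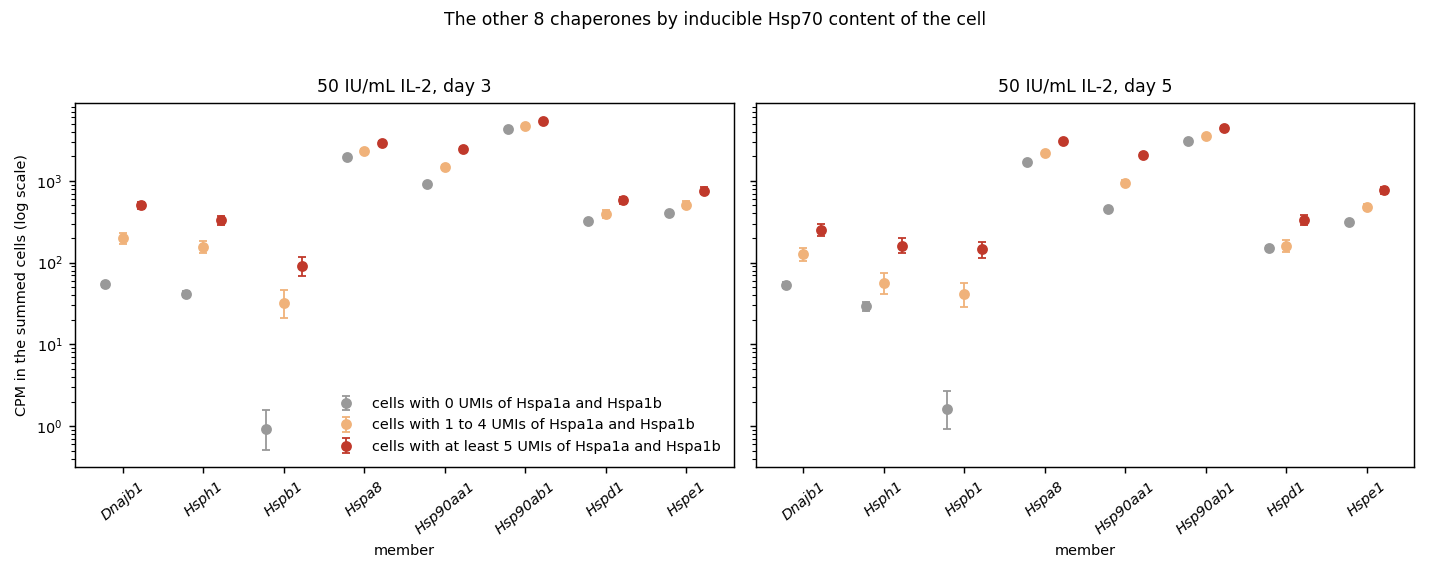
Points give the summed CPM (log axis) of the other 8 chaperones in cells with 0, 1 to 4 and at least 5 UMIs of Hspa1a and Hspa1b, with exact Poisson 95% intervals as bars, on days 3 and 5 at 50 IU/mL IL-2. Every member is higher in the last class than in the first, and the ratio runs from 1.24 for Hsp90ab1 to 9.15 for Dnajb1, both on day 3. Hspb1 is higher still, but no ratio is given because its first class holds only 14 and 15 UMIs.

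Removing the cells with any Hsp70 UMI left the cells in which none was counted. A cell with 0 UMIs is not shown to lack the RNA, so the cells left may include some that held it. Dnajb1 at 50 IU/mL IL-2 was then 54.7 CPM on day 3 and 53.6 CPM on day 5, against 39.6 and 27.3 CPM at 5 IU/mL, differences of 0.45 and 0.95 in place of 1.01 and 1.33. Hsph1 differed by 1.11 and 0.51 in place of 1.62 and 0.89, and Hsp90aa1 by 0.82 and 1.26 in place of 0.96 and 1.62. Hsp90ab1 moved least, from 0.39 and 1.48 to 0.37 and 1.43. In sums over a library, more cells with a gene and more RNA per cell cannot be told apart.

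Cycling cells were compared with the other cells of their library. Hsp90aa1 was higher in cycling cells in 21 of 21 libraries (median 0.82 on the log2 scale, range 0.03 to 1.19), which 10.0% of 5772 genes also were, beside a median of 0.07 over all genes. Dnajb1 (0.29) and Hsph1 (0.22) were higher in 20 libraries, Hspd1 (0.32) and Hsp90ab1 (0.17) in 19 and Hspa8 (0.07) in 18. The share of all genes higher in 18, 19 or 20 libraries was not counted, and the median of Hspa8 was level with that of all genes. Hspe1 went the other way from its partner Hspd1 and was higher in only 7 (median -0.06). In the 2 libraries with the most Hsp70 UMIs, those of 50 IU/mL IL-2 on days 3 and 5, Hspa1a was at 73.1 CPM in cycling and 37.4 CPM in other cells on day 3. On day 5 it was at 149 and 100.1 CPM, while Hspb1 was at 5.86 against 8.02 CPM and 10.9 against 14.7 CPM on the 2 days. The share of cycling cells itself ran from 3.01% in naive cells to 86.9% with 50 IU/mL IL-2v on day 3, and its part in the library differences was not tested beyond the alternative without those cells.

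**Figure D5:**
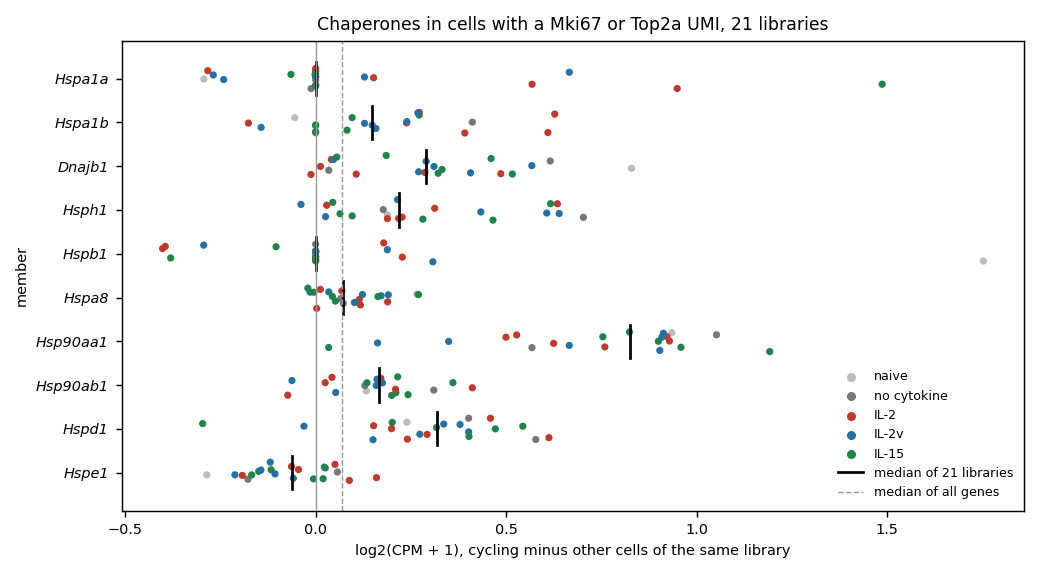
Each point is 1 of 21 libraries and gives the difference of log2(CPM + 1) between cycling and other cells of that library for 1 chaperone; black lines are medians and the dashed line is the median of all genes, 0.07. All 21 points of Hsp90aa1 lie above 0 with a median of 0.82, and most points of Hspe1 lie below 0.

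Genes with the most similar levels over the 21 libraries were taken among 5495 genes of at least 20 CPM on average, by Pearson's r of log2(CPM + 1), as a description of libraries that share days and cytokines. Hsp90ab1 and Hsp90aa1 were both nearest to Tcp1, a subunit of the cytosolic chaperonin (0.97 and 0.95), and had an r of 0.94 with each other. Hspd1 was nearest to Lyar (0.98) and Dnajc2 (0.96), Hspa8 to Bex3 (0.94), Dnajb1 to Snx3 (0.89) and Hsph1 to Rab6a (0.83). Hspe1 had no close match (0.59 with Mrps28). For Hspa1a, Hspa1b and Hspb1 the nearest among those genes were Gtf2e2, Malt1 and Tet2 (0.82 to 0.88). These members averaged under 20 CPM themselves (9.41, 7.73 and 0.966 CPM) and so were not candidates. With each other they had higher values, 0.99 for Hspa1a with Hspa1b and 0.98 for Hspb1 with either. All values for these members rest on the 2 libraries in which they stand far above the others.

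The wider chaperone and stress lists were read beside the members in the IL-2 dose contrast. None of 11 tested other HSF1 targets was called in either direction (median -0.06), nor was any of 16 cochaperones of Hsp70 and Hsp90 (0.12) or of 14 subunits of the chaperonin TRiC and prefoldin (0.36). The shares over all genes were 4.29% higher and 2.70% lower. A call needed the same sign on day 10 as well, when Hspa1a and Hspa1b differed by only 0.02 and 0.01. A gene higher only on days 3 and 5 could thus miss a call, so little is read from these absences. Among genes of mitochondrial protein quality, 2 of 9 were called higher, the protease Lonp1 (2.18) and the mitochondrial Hsp70 Hspa9 (1.91). Among genes of the endoplasmic reticulum and its unfolded protein response 5 of 15 were called higher and 0 lower, led by the transcription factors Ddit3 (2.66) and Xbp1 (1.51) and the lectin chaperone Canx (1.12). Of 5 p53 targets 2 were called higher, Cdkn1a (2.93) and Sesn2 (1.76), and of 8 immediate early genes 0. Of the genes named, these were called higher by dose with IL-2v too, where 2.38% of all genes were: Hspa9 at 1.21, Lonp1 at 1.04, Ddit3 at 2.06, Xbp1 at 1.09, Cdkn1a at 3.73 and Sesn2 at 2.31. With IL-15 no gene of these lists was called by dose.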

How the data were processed

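Single-cell RNA libraries of 21 conditions were used as the deposited tables of UMI counts, 1 table per library with genes in rows and cells in columns. The submitters' processing notes name Cell Ranger, Seurat 3.0.2, Seurat 4.0.1 and mm10, without roles or order; how rows with few UMIs were filtered, and whether counting used strand, is not given in the sources used here. Kept cells had at least 1000 UMIs and 500 genes and no more than 10% mitochondrial UMIs (106456 of 106458). Counts were summed per library and divided by its total (CPM), with a pseudocount of 1 CPM for log2 values. Per-cell shares used cells thinned to 2000 UMIs. Poisson and Clopper-Pearson 95% intervals cover counting error only. Doublets were not called, and leaving out cells above 2 times the median UMIs of their library was an alternative. With 1 library per condition no test was made. Named genes were the 10 members, of each pathway list at most the 3 called genes with the largest median difference, and for each member the 3 genes with the highest correlation over libraries among those averaging at least 20 CPM. Cell type markers and the other HSF1 targets named by Hsp70 class were added after their values were seen. The members and lists were chosen with earlier results of these data known. Titles were followed where treatment labels differed. Day 7 was not analysed here.

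The comparison script was checked on simulated counts. Python 3.11.15, numpy 2.4.6, scipy 1.17.1, pandas 2.3.3 and matplotlib 3.10.9 were used, and edgeR 4.0.16 only for TMM factors, an alternative scaling. Sequences came from RefSeq on GRCm38.p6.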

Additional observations from a re-analysis of the deposited data

Results flagged for a closer look

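Hspe1 differed in direction between cytokines under the same dose step. With IL-2 the 50 IU/mL library was above the 5 IU/mL library on each of 3 days (424 against 300 CPM, 353 against 241 CPM and 289 against 219 CPM), with a median difference of 0.50 on the log2 scale. With IL-2v it was lower on all 3 days (270 against 285 CPM, 228 against 272 CPM and 361 against 387 CPM), with a median of -0.10. The difference between the cytokines was not tested, since each condition was 1 library. Under TMM scaling the medians were 0.45 and -0.19.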

How the results depend on the processing

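Of 142 recomputed counts of called members 134 stayed within 1.5 times the main count, and of 1280 values of single members 14 became calls and 8 were no longer calls. Most comparisons called 0 members in the main setting, so that share says little about the comparisons with calls. No median of a called member changed sign, but medians of members that were not called did under the other scalings. Besides those in the report, Hspd1 turned to 0.07 without cytokine (TMM) and 0.12 for IL-15 against IL-2 (totals without ribosomal protein and mitochondrial genes), Hspe1 to -0.04 for IL-2v against IL-2 (TMM) and -0.01 (those totals), and Hsph1 to -0.11 and -0.05 for the IL-2v dose. From day 3 to day 5 without cytokine 1 member was called with TMM scaling and 1 with a pseudocount of 10 CPM, in place of 2. IL-15 against IL-2 called 1 member without day 10 in place of 0, Hspa1b, through the 50 IU/mL IL-2 libraries on which it was selected. The IL-2 dose called 1 at 5% mitochondrial UMIs, where the median of Hspa1a was 6.18 against 6.06 but its sign was not the same on all days. It called 5 without day 10, in place of 2, and the cause was not tested. These counts include members selected on this contrast, and nothing is read from their part. Without cells with a Hspa1a or Hspa1b UMI, an alternative chosen after seeing the data, the IL-2 dose called 0 by construction, and cytokine against none called 8 in place of 14. Without thinning 14 member values in place of 5 had a Fano factor of at least 2. The share over all genes without thinning is not given here. The 5 include Hspa1a and Hspa1b in the libraries on which they were selected, so nothing is read from the rise.

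The share of higher calls among all calls moved with scaling. Under TMM it went from 27.6% to 38% without cytokine, from 79.2% to 59.0% for IL-2v against IL-2, from 80.9% to 62.1% for IL-2v against IL-15, from 79.2% to 63.9% for the IL-2v dose, from 27.2% to 42.9% for day 5 and from 9.83% to 25.8% for day 10. With totals without ribosomal protein and mitochondrial genes it went from 22.4% to 33.8% for IL-15 against IL-2, from 80.9% to 63.3% for IL-2v against IL-15 and from 61.3% to 50.6% for the IL-2 dose. Libraries were compared in pairs of equal dose, day or cytokine, and no fit by replicate number was made, since each condition was a single library. Depth limited Hspa1a, Hspa1b and Hspb1 in the 19 libraries where they had few UMIs.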
